A study of Mus musculus with 16 samples.

Results

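The response of the cecal epithelium to a pair of bacterial species was set against the sum of its responses to each species alone. The comparison used the 8 Mouse 430 2.0 GeneChips among the 16 GeneChips of the series, which measured laser-captured cecal epithelium of adult NMRI mice kept on a standard chow rich in polysaccharides. The 4 colonization states were association with both Bacteroides thetaiotaomicron and Bifidobacterium longum (Bt/Bl), with B. thetaiotaomicron alone (Bt), with B. longum alone (Bl), and germ-free (GF). Colonized mice were studied 10 days after association, and GF mice of matched age received no bacteria. Each state was 1 RNA pool of 4 mice, amplified through 2 rounds and hybridized to 2 GeneChips that were separate amplifications of that pool, so their spread is technical, and every test compares pools of mice and not mice (n = 2 amplifications per state).

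The interaction is the log2 change of Bt/Bl over Bt less the log2 change of Bl over GF. It is 0 where the fold change in Bt/Bl equals the product of the Bt and Bl fold changes, positive where Bt/Bl lies above that additive value, and negative where Bt/Bl lies below it. The filter asked for signals above 583.1, the median of all values, on both GeneChips of any state, and 24865 of 45037 probe sets were kept, covering 12937 genes with a symbol of their own. Signals under 583.1 were raised to that floor before the log2 scale was taken. At the edge of this filter, Ube2d1 was kept with 583.2 on the dimmer GeneChip of its best state, and Wt1os and Trem1 were left out with 583.1.

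B. thetaiotaomicron is a gut symbiont that breaks down dietary polysaccharides and host glycans, and B. longum belongs to the bifidobacteria, which are common in the infant gut. The epithelium meets such bacteria with secreted mucus, with antimicrobial lectins and ribonucleases, and with transcripts that answer interferons. Type I and type III interferons act through receptors that activate STAT proteins, which bind the interferon-stimulated response element in the promoters of their target genes.

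Both GF GeneChips stood apart from the 6 others in ways that enter every interaction, because GF carries a positive sign in it: a gene whose signals in GF are higher than in the colonized states, which do not differ among themselves, gets a positive interaction of the size of that gap. Fabp6, which carries bile acids inside ileal enterocytes, had signals between 1179 and 1798 in the colonized states and of 68029 and 95108 in GF. Summed signals of 6 ileal enterocyte markers were between 5465 and 16364 in the colonized states and 116351 and 136895 in GF. Summed signals of 7 B and plasma cell markers were 59874 and 43478 in Bt/Bl, 18702 and 20854 in Bt, 35333 and 33519 in Bl, against 128615 and 112275 in GF. The Y-linked gene Eif2s3y was between 3201 and 5657 in the colonized states and at 71.3 and 614 in GF, and Xist, which coats the silenced X chromosome, was between 3753 and 11176 in the colonized states and at 17157 and 22762 in GF. The study describes its mice as male. The ratio of 3′ to 5′ signal for Gapdh was between 8.93 and 17.6 in the colonized states and at 5.66 and 7.26 in GF, while that for beta-actin was between 21.4 and 36.3 in the colonized states and at 36.9 and 38.8 in GF. Epithelial markers were present throughout, with summed signals between 1152000 and 1672130 for 9 genes. What part these differences have in the interactions was not tested, and the 6 colonized GeneChips were therefore also compared without GF.

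Across the 24865 probe sets the median interaction was -0.13 on the log2 scale. It was 0.27 when the GeneChips were scaled to a common median and 0.04 after quantile normalization, so interactions are read against these medians. The interaction stayed under 1 in size for 19578 probe sets (78.7%), was 1 or more above for 1942 (7.81%), and was 1 or more below for 3345 (13.5%). At an unadjusted p under 0.05, 1116 probe sets were above additivity (4.49%) and 1834 below it (7.38%). After Benjamini-Hochberg adjustment of limma's p over all 24865, 11 were higher (0.0442%) and 4 lower (0.0161%). These 15 probe sets stood for 9 genes with a symbol of their own, and 3 of them were annotated to several immunoglobulin kappa genes. In 4 bins of mean signal, from the dimmest to the brightest, 21.8%, 17.0%, 44.6% and 73.6% of the probe sets at an unadjusted p under 0.05 lay above additivity. The median interaction in these bins was -0.33, -0.39, -0.07 and 0.21. The shares and medians over all genes that stand beside gene lists below were not matched for signal.

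**Figure D1:**
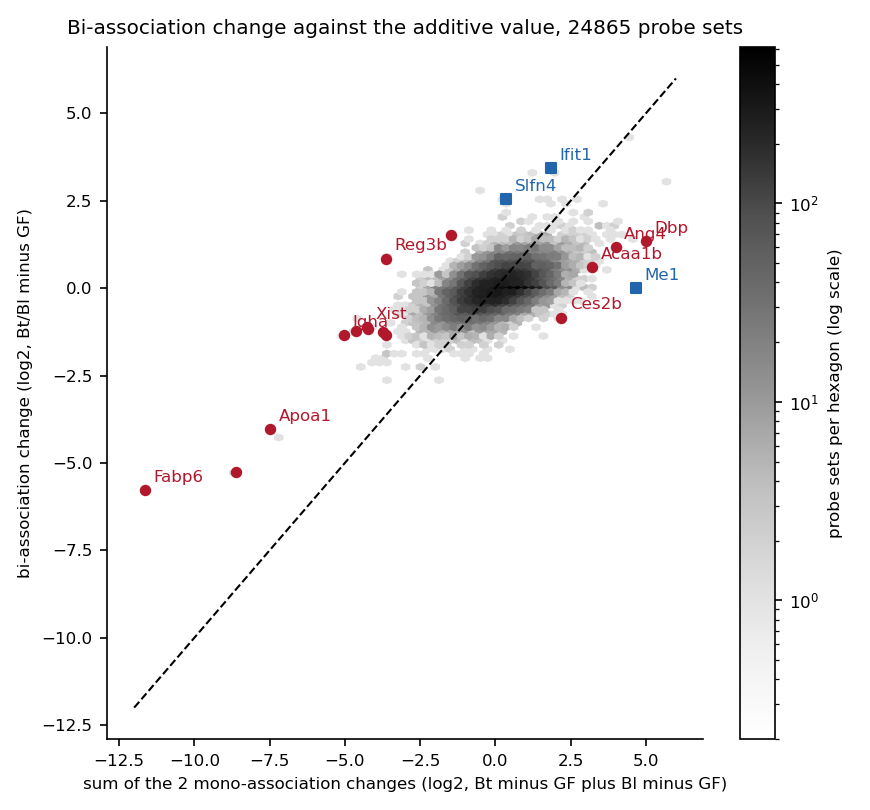
Log2 change of Bt/Bl over GF (y axis) against the sum of the log2 changes of Bt and of Bl over GF (x axis) for 24865 probe sets, with shading for the number of probe sets per hexagon on a log scale, the dashed line at additivity, red circles for the 15 probe sets at an adjusted p under 0.05 and blue squares for 3 named genes that did not reach it. Points above the line have a positive interaction, such as Reg3b at 4.48, and points below it a negative one, such as Dbp at -3.66.

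Probe sets with an interaction of 1 or more in size were sorted by form, with a log2 change of 1 over GF counted as a move. Synergy means that Bt/Bl moved at least 1 further than either mono-association. Dominance of a species means that the other species alone moved the signal, while Bt/Bl stayed within 1 of the dominant species' own state and at least 1 away from the other. Cancellation means that both mono-associations moved the signal the same way and Bt/Bl did not, or moved it the opposite way. A shared response means that all 3 colonized states moved the same way and Bt/Bl moved by less than the sum. These forms are descriptions cut from measured values, and most probe sets in them did not pass the adjusted test. Synergy held 48 probe sets (28 higher, 0.113% of those tested), dominance of Bt 674 (2.71%), dominance of Bl 406 (1.63%), cancellation 202 (73 with a higher interaction, 0.294%, and 129 with a lower, 0.519%) and the shared response 117 (0.471%). The remaining 3840 (15.4%) had mixed patterns. Among dominance patterns with a negative interaction, 497 of 522 for Bt and 269 of 294 for Bl had at least 1 state at the floor, so their sizes depend on it. The 15 called probe sets fell into dominance of Bt (3), cancellation (2) and the shared response (10), and none of the probe sets in synergy or in dominance of Bl was called by limma, with 25 of 48 and 258 of 406 at an unadjusted p under 0.05.

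Upward synergy held 28 probe sets, and 9 of the 43 tested type I interferon-stimulated genes had this form (all genes: 0.157%). Ifit1, which binds viral RNA and blocks its translation, had signals of 43357 and 44125 in Bt/Bl, 9757 and 8443 in Bt, 6239 and 6728 in Bl, against 3390 and 4845 in GF. Bt/Bl stood above all other GeneChips, and its geometric mean of 43739 compares with an additive value of 14510. The interaction was 1.59 ± 0.34 (SE), with an adjusted p of 0.405, and it was between 1.33 and 1.85 whichever GeneChip was left out. Set against each mono-association directly, Ifit1 rose 4.82-fold in Bt/Bl over Bt (adjusted p = 0.0341) and 6.75-fold over Bl (adjusted p = 0.00245). Over all probe sets, limma called 4 above Bt in Bt/Bl (0.0161%) and 6 above Bl (0.0241%), and Ifit1 was the 1 called in both. In a fit without the GF GeneChips, added after the data had been seen, Ifit1 was 2.51 ± 0.16 (SE) above the mean of Bt and Bl on the log2 scale (adjusted p = 0.0414), 1 of 2 probe sets called there. That difference is another contrast than the interaction and need not be 0 where responses add.

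Slfn4, a Schlafen gene of the interferon response, had signals of 78811 and 71999 in Bt/Bl, 24936 and 11276 in Bt, 13119 and 12564 in Bl, against 12764 and 13184 in GF. Neither mono-association lay far from GF, except for 1 Bt GeneChip, and both Bt/Bl GeneChips were the brightest. Its interaction was 2.18 ± 0.44 (SE, adjusted p = 0.366), between 1.61 and 2.75 with a GeneChip left out, and its rise in Bt/Bl was called over Bl (5.87-fold, adjusted p = 0.0250) but not over Bt (4.49-fold, adjusted p = 0.0910). Other Schlafen genes did not share this form: the interaction was -1.79 for Slfn2, 0.27 for Slfn5 and 0.40 for Slfn9. Of the 4 tested, 1 was above additivity and 1 below at an unadjusted p under 0.05 (all genes: 5.16% above and 6.39% below). Rsad2, which encodes the antiviral enzyme viperin, had signals of 12983 and 10428 in Bt/Bl, 3378 and 4193 in Bt, 2257 and 3446 in Bl, against 2908 and 3074 in GF. Bt/Bl lay above the 6 other GeneChips, and its interaction was 1.73 ± 0.45 (SE, adjusted p = 0.405), against 0.87 and 0.004 by its other probe sets, which are dimmer. The probe set annotated to both Isg15 and Gm9706, for a ubiquitin-like modifier, had 4689 and 4892 in Bt/Bl, 143 and 100.4 in Bt, 196 and 213 in Bl, against 844 and 440 in GF. All 4 mono-association values are under the floor of 583.1, and with them raised to it the interaction was 3.30 ± 0.73 (SE, adjusted p = 0.405).

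Further interferon-stimulated genes had the same form, of which Rtp4 and Herc6 were picked after their values had been seen. Rtp4, an interferon-induced chaperone of receptors, had 18560 and 15276 in Bt/Bl, 2928 and 3773 in Bt, 4569 and 2074 in Bl, against 1473 and 1782 in GF, with an interaction of 1.41 ± 0.55 (SE, adjusted p = 0.405). Ifit2, a relative of Ifit1, had 5826 and 5740 in Bt/Bl, 203 and 1720 in Bt, 929 and 344 in Bl, against 84.1 and 426 in GF, with an interaction of 2.19 ± 0.90 (SE). Herc6, a ubiquitin-protein ligase induced by interferon, had 5366 and 4460 in Bt/Bl, 1058 and 664 in Bt, 1003 and 1844 in Bl, against 421 and 1481 in GF. In each of these the pair of Bt/Bl GeneChips lay above the 6 others, while duplicates of the mono-associations differed by up to several fold. Xaf1, an interferon-induced apoptosis factor, had an interaction of 2.64 by its brightest probe set and -0.40 by another. Cdca7, a cell cycle gene outside the interferon lists, had 1314 and 1244 in Bt/Bl, 122 and 147 in Bt, 210 and 96.3 in Bl, against 125 and 115 in GF. All 6 values outside Bt/Bl are under the floor, and its interaction of 1.13 ± 0.33 (SE, adjusted p = 0.405) depends on it.

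**Figure D2:**
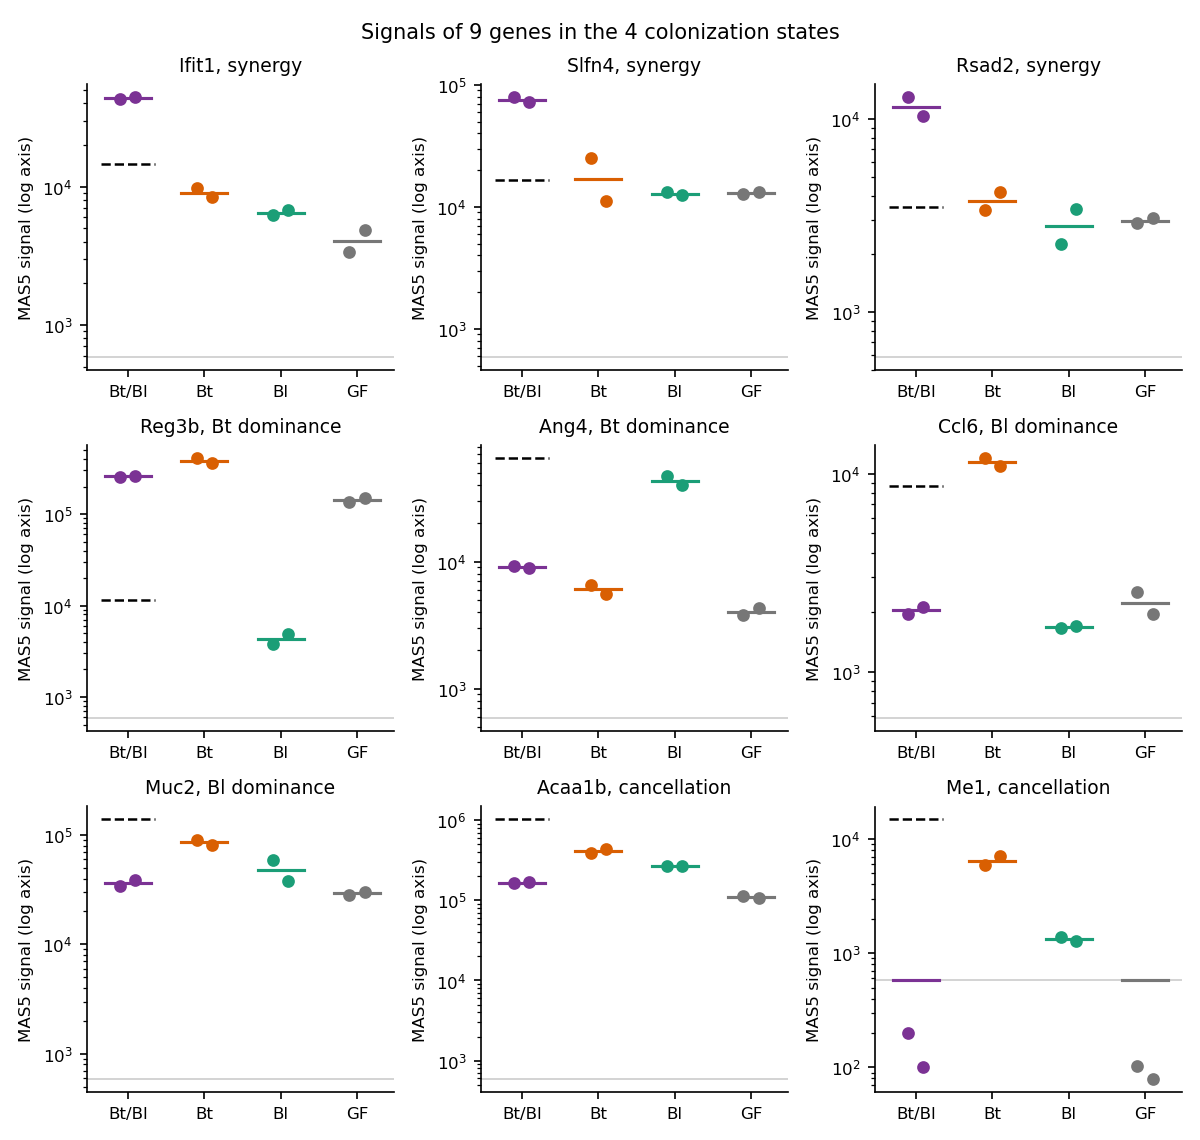
MAS5 signals on a log axis for 9 genes in Bt/Bl, Bt, Bl and GF, with a point per GeneChip, a coloured line at the geometric mean of the duplicates after the floor, a dashed black line at the additive value for Bt/Bl and a grey line at the floor of 583.1. Bt/Bl lies above the dashed line for Ifit1 (43739 against 14510), Slfn4, Rsad2 and Reg3b, and below it for Ang4, Ccl6, Muc2, Acaa1b and Me1.

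The list of type I interferon-stimulated genes held 54 genes, of which 48 were on the GeneChip with a probe set of their own and 43 were tested. None of the 43 was called for the interaction by limma, and 13 were above additivity at an unadjusted p under 0.05 against 1 below (all 12730 genes: 5.16% above and 6.39% below). The interaction was positive for 34 of the 43 (all genes: 46.6%), and 12 of the 43 lay 1 or more above both mono-associations (all genes: 0.621%). The median interaction of the list was 0.78, against -0.07 over all genes, and its median change over GF was 0.85 in Bt/Bl, 0.25 in Bt and -0.02 in Bl. The list's median stayed between 0.62 and 1.29 under the other settings, and between 0.65 and 0.93 with a GeneChip left out. Its members were not alike: Oas1a, a sensor of double-stranded RNA, had an interaction of -0.86, with 40022 and 46860 in Bt/Bl, 47424 and 30005 in Bt, 44681 and 30653 in Bl, against 19743 and 15901 in GF, so it was above GF in every colonized state. Ifih1, a cytosolic RNA sensor, had 34092 and 30254 in Bt/Bl, 19582 and 13216 in Bt, 11766 and 18231 in Bl, against 18072 and 17644 in GF, near GF in both mono-associations.

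**Figure D3:**
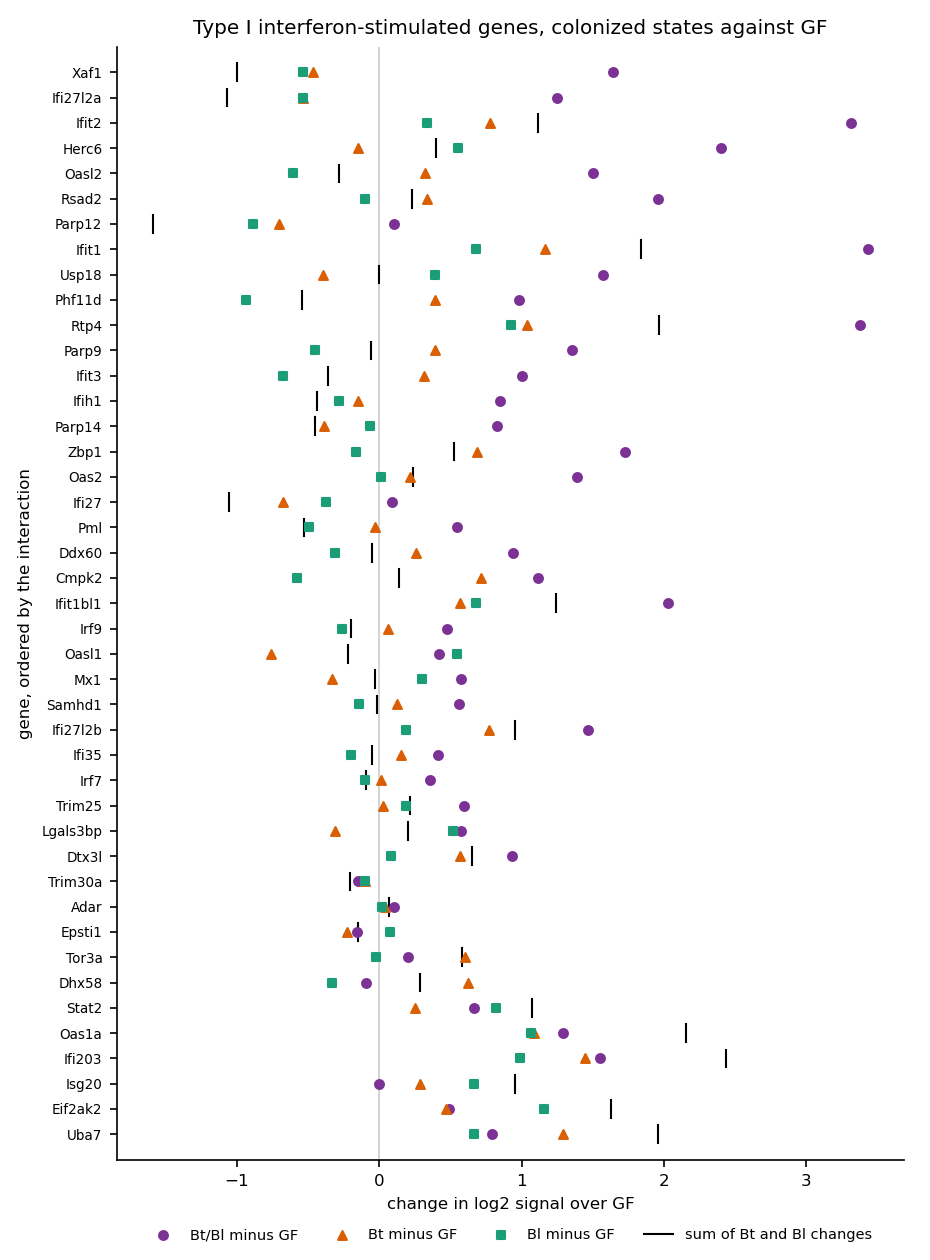
Log2 change over GF in Bt/Bl (circles), Bt (triangles) and Bl (squares) for the 43 tested type I interferon-stimulated genes, ordered by the interaction, with a black tick at the sum of the Bt and Bl changes. For 34 genes the circle lies to the right of the tick, and the mono-associations lie near GF for Rsad2, above it for Ifit1 and below it for Parp12.

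Other interferon lists had smaller medians. Of 8 tested interferon-inducible GTPases, which attack vacuoles that hold microbes, 6 had a positive interaction (median 0.57, all genes: 46.6% positive). At an unadjusted p under 0.05, 1 of the 8 was above additivity (all genes: 5.16%). Irgm2 of that family had 1945 and 2847 in Bt/Bl, 694 and 992 in Bt, 715 and 1357 in Bl, against 820 and 886 in GF (interaction 1.29 ± 0.82, SE). Ifi47 had 14472 and 17389 in Bt/Bl, 4774 and 7711 in Bt, 4714 and 4123 in Bl, against 2586 and 3060 in GF, and since both mono-associations already lay above GF its interaction was only 0.74 ± 0.42 (SE). The interferon and receptor genes themselves had a median of 0.26 over 8 genes, none at an unadjusted p under 0.05. Markers of plasmacytoid dendritic cells, a source of type I interferon, summed to 2464 and 2530 in Bt/Bl and to between 1518 and 4836 on the other GeneChips.

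Promoters of these genes are shown because the interferon-stimulated response element can be read in them. Windows of 300 bases from RefSeq on GRCm38.p6, around the start of each gene, were searched on both strands for its core, GAAANNGAAA, and for the gamma-activated site, TTCNNNGAA. Each stretch below runs 5′ to 3′ on the strand of its gene, and capitals mark the core or its reverse complement.
Ifit1: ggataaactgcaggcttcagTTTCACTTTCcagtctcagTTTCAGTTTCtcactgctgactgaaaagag
Rsad2: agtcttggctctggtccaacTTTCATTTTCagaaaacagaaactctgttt
Isg15: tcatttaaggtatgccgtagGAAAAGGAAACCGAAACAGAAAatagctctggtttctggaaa
Ifit1bl1: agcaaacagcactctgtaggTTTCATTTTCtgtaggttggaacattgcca
Irgm2: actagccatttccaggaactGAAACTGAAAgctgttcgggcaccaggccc

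The stretches lie upstream of the start at chr19:34640765-34640833 on the plus strand for Ifit1, chr12:26456543-26456592 on the minus strand for Rsad2, chr4:156200855-156200916 on the minus strand for Isg15, chr19:34602043-34602092 on the minus strand for Ifit1bl1 and chr11:58214893-58214942 on the plus strand for Irgm2. Ifit1 holds the core at 2 places and Isg15 at 3 overlapping ones. Among the 43 tested interferon-stimulated genes 31 had a window, and 11 of these held the core (35.5%), against 368 of 10384 tested genes with a window (3.54%) and 1131 of all 32851 windows (3.44%). The gamma-activated site was in 7 of the 31 (22.6%), against 849 of the 10384 (8.18%). Of 23 genes in synergy with a higher interaction of the same sign in all 16 choices of 1 GeneChip per state, 19 had a window, 3 of which held the core (15.8%) and 4 the gamma-activated site (21.1%). The windows of Slfn4, Xaf1, Herc6 and Ifit2 held no match to the core. A match describes these letters and does not show that a factor binds there. Ifit1bl1, a neighbour of Ifit1 in the same family, had signals of 105547 and 109044 in Bt/Bl, 41440 and 36600 in Bt, 43300 and 40984 in Bl, against 25265 and 27453 in GF. It rose in Bt/Bl over Bt (1.46 on the log2 scale, adjusted p = 0.0497), while its interaction of 0.78 is near additive, since both mono-associations lay above GF.

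Synergy downward was weaker. Cyp2d10, a cytochrome P450, had 13528 and 17448 in Bt/Bl, 75833 and 53648 in Bt, 41224 and 32410 in Bl, against 55802 and 53143 in GF. Bt/Bl held the lowest signals, and the fall over Bt was called (log2 change -2.05, adjusted p = 0.0341) while the interaction of -1.48 ± 0.33 (SE) was not (adjusted p = 0.405). Szrd1 had an interaction of -2.20 and Ccdc12 of -1.78, and other probe sets of both genes gave values nearer to 0 or above it (-0.52 for Szrd1, 0.23 and 1.45 for Ccdc12).

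Dominance of Bt was clearest for the Reg3 lectins, C-type lectins that the epithelium secretes against bacteria. Reg3b had signals of 252956 and 263622 in Bt/Bl, 405724 and 362467 in Bt, 3803 and 4930 in Bl, against 136536 and 151076 in GF. Bl alone lay far below GF, and Bt/Bl lay above GF on the side of Bt. From both mono-associations the additive value is 11561, the observed geometric mean was 258234, and the interaction of 4.48 ± 0.29 (SE, adjusted p = 4.11e-04) was between 4.29 and 4.67 with a GeneChip left out. A second probe set gave 2.98 ± 0.33 (SE, adjusted p = 0.0107), from 37781 and 41154 in Bt/Bl, 70388 and 54835 in Bt, 1221 and 1016 in Bl, against 12069 and 15801 in GF. Bt/Bl was 59.6-fold above Bl (adjusted p = 6.97e-07) and 1.49-fold below Bt (adjusted p = 0.455). Without the GF GeneChips, Bt/Bl was 2.66 ± 0.18 (SE) above the mean of Bt and Bl by the first probe set (adjusted p = 0.0414) and 2.25 ± 0.18 (SE) by the second, which was not called there (adjusted p = 0.101).

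The scale matters for Reg3b. If differences in signal are added in place of fold changes, the value expected in Bt/Bl is 244656, close to the observed mean of 258289 (log2 ratio 0.08), and the second probe set lay below its expectation (log2 ratio -0.34). Reg3g, the other lectin of this pair, had 7321 and 7842 in Bt/Bl, 16629 and 9676 in Bt, 152 and 33.6 in Bl, against 2437 and 2154 in GF. Its Bl signals are under the floor, so the interaction of 1.23 ± 0.49 (SE, adjusted p = 0.405) depends on it, and on the linear scale Reg3g lay below additivity (log2 ratio -0.53). Its level in Bt/Bl was called above Bl (log2 change 3.70 with the floor, adjusted p = 0.00328).

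The same form ran the opposite way for Ang4, an antimicrobial ribonuclease of Paneth and goblet cells. Ang4 had 9287 and 8912 in Bt/Bl, 6570 and 5535 in Bt, 46895 and 40107 in Bl, against 3818 and 4280 in GF. Bl alone was the brightest state by far, and Bt/Bl lay next to Bt. Against an additive value of 64696 the geometric mean in Bt/Bl was 9098, an interaction of -2.83 ± 0.32 (SE, adjusted p = 0.0107) that was between -2.95 and -2.71 with a GeneChip left out. The fall of Bt/Bl below Bl was 4.77-fold (adjusted p = 0.00416), and on the linear scale the log2 ratio was -2.32. A dimmer probe set of Ang4 had 6245 and 8100 in Bt/Bl, 2554 and 4830 in Bt, 14963 and 18430 in Bl, against 4125 and 2650 in GF, with an interaction of -1.31 ± 0.50 (SE) that was not called.

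Clca1, which goblet cells secrete into mucus, had a similar profile at a smaller size. Its signals were 37098 and 41467 in Bt/Bl, 36004 and 36349 in Bt, 85225 and 78138 in Bl, against 33547 and 35968 in GF. Only Bl alone stood apart, and the interaction was -1.12 ± 0.26 (SE, adjusted p = 0.405), with a second, dim probe set at 0.40. Among higher interactions of this form Nemf, a factor of ribosome quality control, had 9043 and 8005 in Bt/Bl, 5314 and 3488 in Bt, 3150 and 3506 in Bl, against 8361 and 8481 in GF, so Bt/Bl and GF were alike and both mono-associations lower. Its interaction was 2.32 ± 0.40 (SE, adjusted p = 0.149), and another probe set gave 0.56. Zmynd11 (1.86), Cd2ap (1.59) and Snrpa1 (1.47) followed without passing. Other probe sets gave -0.44 and -0.74 for Zmynd11, 0.80 and 0.12 for Cd2ap, and 2.08 and -1.67 for Snrpa1, so they did not share one sign for Zmynd11 and Snrpa1. Vldlr, a lipoprotein receptor, had -2.16 ± 0.56 (SE, adjusted p = 0.405), with 1363 and 1522 in Bt/Bl, 2385 and 3333 in Bt, 4301 and 3242 in Bl, against 1535 and 1742 in GF. Other probe sets of Vldlr gave -0.89 and -0.54.

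Dominance of Bl was held by genes that Bt alone moved and Bt/Bl did not, and none was called for the interaction. Ccl6, a chemokine, had 1967 and 2127 in Bt/Bl, 11919 and 10959 in Bt, 1664 and 1702 in Bl, against 2534 and 1955 in GF. Its signal in Bt stood apart from the 6 other GeneChips, and it fell 5.59-fold in Bt/Bl below Bt (adjusted p = 0.0497). The interaction was -2.08 ± 0.46 (SE, adjusted p = 0.405), with -1.56 by a dimmer probe set.

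Muc2, the gel-forming mucin of goblet cells, had 33935 and 38645 in Bt/Bl, 89921 and 81136 in Bt, 59458 and 37734 in Bl, against 28272 and 30154 in GF. Bt alone was the brightest state, and the interaction was -1.94 ± 0.33 (SE, adjusted p = 0.149). Mt1, a metallothionein that binds zinc, had 29051 and 37512 in Bt/Bl, 147302 and 105815 in Bt, 82218 and 51466 in Bl, against 47620 and 61015 in GF, so Bt/Bl lay below GF as well. Its interaction was -2.19 ± 0.39 (SE, adjusted p = 0.178), while its other, dim probe set gave -0.24. Mt2, its neighbour, had a mixed pattern and not this form, with log2 changes over GF of 0.32 in Bt and -1.60 in Bt/Bl. Its signals were 8419 and 7758 in Bt/Bl, 34725 and 26893 in Bt, 14431 and 17314 in Bl, against 23909 and 25204 in GF. It fell 3.78-fold in Bt/Bl below Bt (adjusted p = 0.0341).

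Fabp1, the liver-type fatty acid-binding protein, had 500.0 and 516 in Bt/Bl, 1714 and 3781 in Bt, 385 and 979 in Bl, against 40.9 and 522 in GF. Most of these values are under the floor, and its interaction of -2.50 ± 0.74 (SE, adjusted p = 0.405) rests on Bt, with -0.80 by another probe set. Tgm3, a transglutaminase, was bright in Bt alone in the same way (799 and 97.8 in Bt/Bl, 3741 and 3918 in Bt, 444 and 623 in Bl, against 162 and 456 in GF). In the upward direction Myh14, a non-muscle myosin, had 12567 and 9966 in Bt/Bl, 2780 and 5060 in Bt, 8827 and 11170 in Bl, against 10148 and 13806 in GF, with an interaction of 1.83 ± 0.45 (SE, adjusted p = 0.405). Rasa1 (1.83), Gnaq (1.96), Seh1l (2.80) and Phrf1 (2.84) shared that form without passing. Other probe sets gave -0.008 for Rasa1, 0.51, -0.75 and 0.31 for Gnaq, and values from -1.41 to -0.002 for Seh1l. For Rasa1, Gnaq and Seh1l the form is therefore not one of the gene as a whole.

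In cancellation limma called the interaction of a pair of enzymes of lipid and ester metabolism. The form itself was not tested. Of the changes of these enzymes over GF, limma called that of Acaa1b in Bt (adjusted p = 0.00412) and no other. Acaa1b, a peroxisomal thiolase of fatty acid oxidation, had 164919 and 168837 in Bt/Bl, 392354 and 437043 in Bt, 270804 and 271379 in Bl, against 112718 and 107337 in GF. Both mono-associations lay above the bi-association, and the duplicates of every state lay close together. The interaction was -2.61 ± 0.30 (SE, adjusted p = 0.0107), between -2.69 and -2.53 with a GeneChip left out, and -1.79 as a log2 ratio on the linear scale. Ces2b, a carboxylesterase, had 19733 and 18699 in Bt/Bl, 97380 and 50345 in Bt, 85753 and 71430 in Bl, against 33696 and 35465 in GF. Here Bt/Bl lay below GF while each mono-association lay above it, and the interaction was -3.04 ± 0.40 (SE, adjusted p = 0.0243), between -3.52 and -2.57 with a GeneChip left out and -2.62 on the linear scale.

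Me1, malic enzyme, which supplies NADPH for lipid synthesis, had 201 and 99.8 in Bt/Bl, 5932 and 7082 in Bt, 1396 and 1276 in Bl, against 102 and 78.3 in GF. It was under the floor in Bt/Bl and GF and above it in both mono-associations. The interaction with the floor was -4.67 ± 0.72 (SE, adjusted p = 0.0891), and the other, dimmer probe set of Me1 gave -1.14. Prap1, a secreted protein of the intestinal epithelium that binds lipid, had 30592 and 30605 in Bt/Bl, 58850 and 41958 in Bt, 51414 and 39813 in Bl, against 18873 and 15754 in GF (interaction -2.09 ± 0.33, SE, adjusted p = 0.0891). Its other, dimmer probe set gave 1.60, the opposite sign. H2-T3, the thymus leukaemia antigen of intestinal epithelium, had 120084 and 100706 in Bt/Bl, 172234 and 220315 in Bt, 148454 and 142641 in Bl, against 52778 and 92032 in GF. Its interaction of -1.89 ± 0.39 (SE) was not called, and a second probe set gave -0.32.

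The list of PPAR targets and fatty acid oxidation genes, to which Me1 belongs, had 18 tested genes. None was called, 5 were below additivity at an unadjusted p under 0.05 and none above, and 15 of the 18 were negative (all genes: 6.39% below and 46.6% positive). Its median interaction was -0.55, beside -0.07 over all genes and -0.13 over all probe sets. With GeneChips scaled to a common median the list's median was -0.04, beside 0.27 over all probe sets. Plin2, a lipid droplet protein, had 41439 and 41384 in Bt/Bl, 49948 and 52957 in Bt, 32947 and 40962 in Bl, against 22937 and 23931 in GF, and the interaction was -0.96 ± 0.27 (SE). Pdk4, a kinase that curbs glucose oxidation, lay between 2195 and 2978 on every colonized GeneChip and at 616 and 806 in GF, so the interaction of -2.12 stands beside one level in all colonized states. Among 29 tested genes of conjugation and detoxification Ces2b was called. At an unadjusted p under 0.05, 10 of them were below additivity and 2 above (all genes: 6.39% below and 5.16% above). Their median interaction was -0.06, beside -0.07 over all genes, and 13 of the 29 were positive.

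Cancellation upward, where both mono-associations lay below GF, contained no called gene. Jchain, the joining chain of polymeric immunoglobulin, had 6182 and 5885 in Bt/Bl, 789 and 2226 in Bt, 3497 and 3590 in Bl, against 9551 and 11759 in GF, with an interaction of 3.77 ± 0.61 (SE, adjusted p = 0.106). Hoxa9, a homeobox gene, had 14345 and 12900 in Bt/Bl, 6463 and 4247 in Bt, 4231 and 7398 in Bl, against 10450 and 15087 in GF, with 2.54 ± 0.47 (SE, adjusted p = 0.202) and -0.10 by another probe set. Tmed5, a cargo protein of the secretory pathway, had 2.55 ± 0.43 (SE, adjusted p = 0.130), and other probe sets gave -0.56 and -0.49. Hspa1b, an inducible chaperone, had 17697 and 16315 in Bt/Bl, 14516 and 11476 in Bt, 11737 and 15050 in Bl, against 26917 and 32433 in GF, with 1.55 ± 0.32 (SE, adjusted p = 0.405) and 2.42 and 1.32 by other probe sets. In the heat shock and unfolded protein list 16 of 18 tested genes were positive (all genes: 46.6%), and the median was 0.67. At an unadjusted p under 0.05, 4 were above additivity and none below (all genes: 5.16% above and 6.39% below). For Hspa1b GF was the highest state and Bt/Bl was only 1.32-fold above Bt and 1.28-fold above Bl.

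The shared response held 10 of the 15 called probe sets, and 9 of these were higher in GF than in every colonized state. Fabp6 gave the largest interaction of the 15, 5.87 ± 0.49 (SE, adjusted p = 0.00153), although Bt/Bl differed only 1.04-fold from Bt and 1.02-fold from Bl. Apoa1, an apolipoprotein of lipid absorption, had 936 and 987 in Bt/Bl, 2245 and 2684 in Bt, 1321 and 1563 in Bl, against 39656 and 34578 in GF, with 3.33 ± 0.44 (SE, adjusted p = 0.0278) and 3.45 by a second probe set (adjusted p = 0.0166). Xist gave 3.16 ± 0.39 (SE, adjusted p = 0.0166). GF stood apart for each of these, and the colonized states of Fabp6 lay together. For Xist both Bt/Bl signals of the called probe set lay above those of Bt and Bl. The difference from the mean of Bt and Bl was 1.03 on the log2 scale in the fit without GF (adjusted p = 0.606). Other Xist probe sets, with interactions of 1.90 and 2.09 that were not called, did not share this order. The log2 change of Bt/Bl was 0.45 over Bt and -0.54 over Bl by the former. It was -0.15 over Bt and 0.61 over Bl by the latter. For Apoa1 Bt/Bl lay 2.55-fold below Bt by the probe set whose signals are given. Without GF the 2 Apoa1 probe sets were at -0.97 and -0.29, the opposite sign to their interactions. On the linear scale the expected signal in Bt/Bl was negative for Fabp6, Apoa1, Xist, Igha and the kappa probe sets, so no ratio was taken.

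Igha, the heavy chain of immunoglobulin A, differed among the colonized states as well. It had 49896 and 34067 in Bt/Bl, 12171 and 13110 in Bt, 25565 and 27712 in Bl, against 113964 and 95694 in GF by its brightest probe set. The interaction was 3.68 ± 0.32 (SE, adjusted p = 0.00162), with 3.39 ± 0.27 (SE, adjusted p = 0.00124) by a second and 2.99 by another that was not called. Bt/Bl was 3.26-fold above Bt by the brightest probe set (adjusted p = 0.0497) and 2.88-fold by the second (adjusted p = 0.0473). The 3 probe sets annotated to several immunoglobulin kappa genes had interactions of 2.30, 2.49 and 3.08 (adjusted p = 0.0499, 0.0145 and 0.0212). These are transcripts of plasma cells, and the order of the summed B and plasma cell markers given above is mostly that of Igha itself, with Jchain. The other tested markers did not share it by the probe set used for each. Ighm, the heavy chain of immunoglobulin M, had 929 and 1767 in Bt/Bl, 3068 and 2583 in Bt, 1908 and 1218 in Bl, against 1028 and 2333 in GF. Its interaction was -1.11, and those of Mzb1 and Ms4a1 were 0.23 and -0.17, none called. Other Ighm probe sets gave 1.51, 0.91, 0.64, -0.38, -0.45 and -1.11, none called, so Ighm did not have one sign. The part of plasma cell number in the result was not tested, since fewer cells of a type and less RNA per cell cannot be told apart in these pools.

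Dbp, a transcription factor of circadian clock output, was the called gene of this form with a negative interaction. It had 9300 and 8142 in Bt/Bl, 29501 and 18554 in Bt, 18078 and 14120 in Bl, against 3002 and 3863 in GF. All colonized states lay above GF, and Bt/Bl lay below each mono-association. The interaction was -3.66 ± 0.39 (SE, adjusted p = 0.0107), between -3.99 and -3.32 with a GeneChip left out, and a dimmer probe set gave -1.14. Across 13 tested clock genes 2 were below additivity and 1 above at an unadjusted p under 0.05, against 6.39% below and 5.16% above over all genes. Their median was -0.51, and it rested on Bl: it was -0.85 without the first Bl GeneChip and -0.05 without the second.

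Among other genes of the shared response with negative interactions, none called, Akr1c18, an aldo-keto reductase, had 2657 and 2280 in Bt/Bl, 6584 and 6390 in Bt, 2747 and 3527 in Bl, against 674 and 1236 in GF. Its Bt/Bl signals lay with those of Bl and 2.64-fold below Bt, and its interaction was -3.17 ± 0.57 (SE, adjusted p = 0.178). Aqp8 and Retnlb differed less among the colonized states. Aqp8, a water channel of the colon, had 42880 and 42730 in Bt/Bl, 33810 and 39872 in Bt, 38596 and 49985 in Bl, against 10169 and 14517 in GF. Retnlb, a goblet cell protein induced by microbes, had 96333 and 91537 in Bt/Bl, 80494 and 89551 in Bt, 75687 and 100721 in Bl, against 31409 and 34152 in GF. Their interactions were -1.63 ± 0.33 (SE) and -1.27 ± 0.29 (SE), and those of Itln1, a lectin of goblet and Paneth cells, and Saa2, an acute-phase protein, were -2.08 and -2.36. For Aqp8 and Retnlb the additive values in Bt/Bl, 132729 and 226337, lay above every signal measured.

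**Figure D4:**
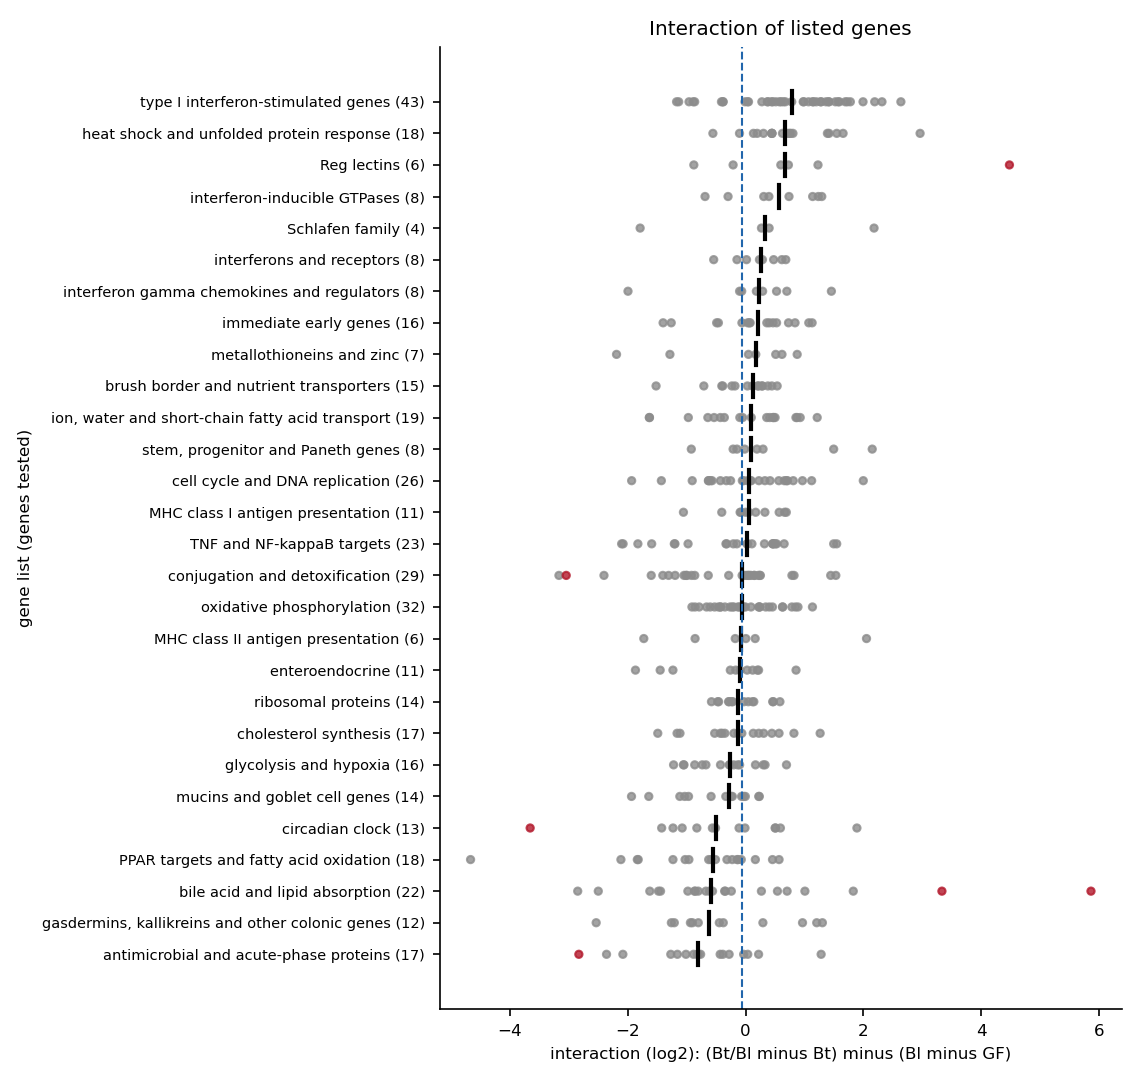
Interaction of each tested gene (points, x axis in log2) in 28 gene lists, with the number tested in parentheses, a black bar at the list's median, red points for genes at an adjusted p under 0.05 and a dashed line at the median of all genes, -0.07. The type I interferon-stimulated list has the highest median, 0.78, and the antimicrobial list the lowest, -0.80.

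Antimicrobial and acute-phase proteins had the lowest median of the lists, -0.80, with 14 of 17 tested genes negative (all genes: 46.6% positive) and Ang4 called. At an unadjusted p under 0.05, 5 were below additivity and 1 above (all genes: 6.39% below and 5.16% above). The median of that list was between -1.16 and -0.31 under the other settings. In mucins and goblet cell genes 12 of 14 were negative (all genes: 46.6% positive), 2 of them at an unadjusted p under 0.05 (all genes: 6.39% below). The median was -0.29 (0.09 with GeneChips scaled to a common median, which moved the median of all probe sets to 0.27). Oxidative phosphorylation (32 genes, median -0.06), ribosomal proteins (14 genes, -0.12), MHC class I (11 genes, 0.05) and class II (6 genes, -0.08) had medians close to that of all genes. TNF and NF-kappaB targets had a median of 0.02 over 23 genes, with 1 above and 4 below at an unadjusted p under 0.05 (all genes: 5.16% above and 6.39% below). Birc3, an inhibitor of apoptosis, was the 1 above: 9582 and 9115 in Bt/Bl, 3585 and 3610 in Bt, 3233 and 5696 in Bl, against 3817 and 6113 in GF (interaction 1.55 ± 0.49, SE).

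The counts of the next lists stand beside 5.16% above and 6.39% below additivity at an unadjusted p under 0.05, and 46.6% positive, over all genes. Of the 6 tested Reg lectins 4 had a positive interaction, 3 of them at an unadjusted p under 0.05, and Reg3b was called (median 0.66, between 0.60 and 1.66 under the other settings, but 0.16 without the first GF GeneChip and 1.01 without the second). In the list of gasdermins, kallikreins and other colonic genes 8 of 12 were negative, with 5 below additivity and 2 above at an unadjusted p under 0.05 (median -0.62). Bile acid and lipid absorption had 15 of 22 negative (median -0.59), although its called members, Fabp6 and Apoa1, were positive. Cell cycle genes (26 tested, median 0.06) and cholesterol synthesis genes (17 tested, -0.13) had 1 gene each above additivity at an unadjusted p under 0.05, and 1 cell cycle gene below it.

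Near-additive genes show what the absence of an interaction looked like at this precision. Muc4, a membrane mucin, had 5938 and 7953 in Bt/Bl, 2277 and 3541 in Bt, 3870 and 3103 in Bl, against 1913 and 1463 in GF, and its geometric mean of 6872 in Bt/Bl stood beside an additive value of 5880 (interaction 0.22 ± 0.52, SE). Ada, adenosine deaminase, had 3718 and 3054 in Bt/Bl, 1780 and 2859 in Bt, 3305 and 3969 in Bl, against 1304 and 1232 in GF (-0.94 ± 0.56, SE). Socs3, a feedback inhibitor of cytokine signalling, had 6534 and 5709 in Bt/Bl, 14699 and 7905 in Bt, 1628 and 1476 in Bl, against 900 and 2151 in GF (-0.98 ± 0.64, SE). With standard errors of this size an interaction under 1 could not be told from 0 for Ada or Socs3. Klk1, a tissue kallikrein, was uncertain for another reason, since its probe sets had interactions of 0.97, -1.49, -2.27 and -0.58.

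The custom GlycoGeneChip, which carries genes of glycan metabolism and a few others, measured the same 4 states on 8 further GeneChips, and its labels do not say whether those duplicates came from the same pools. It called 1 of 457 tested probe sets (0.219%), and this was again Reg3b: 110988 and 123018 in Bt/Bl, 194932 and 199690 in Bt, 3599 and 1195 in Bl, against 44347 and 57740 in GF (interaction 3.85 ± 0.48, SE, adjusted p = 1.02e-04). A second Reg3b probe set of that GeneChip had 12641 and 15209 in Bt/Bl, 34227 and 27249 in Bt, 139 and 115 in Bl, against 2611 and 3912 in GF. Its Bl values are under the floor of 860.3, and its interaction was 0.75 (adjusted p = 0.646). Both GeneChip types covered 286 genes through 332 pairs of probe sets, so a gene can enter more than once. Agreement in sign was counted only among the pairs below, so it has no share over all pairs beside it. Of 31 pairs with an interaction of 1 or more and an unadjusted p under 0.05 on the Mouse 430 2.0, 23 had the same sign on the GlycoGeneChip, and 5 of these had an unadjusted p under 0.05 there too. Apart from Reg3b none passed after adjustment. They included Hexa, a lysosomal hexosaminidase, at -1.19 ± 0.36 (SE) on the Mouse 430 2.0 and -2.29 ± 0.78 (SE) on the GlycoGeneChip, and Papss1, which makes the sulfate donor, at 1.60 ± 0.59 (SE) and 1.43 ± 0.44 (SE).

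**Figure D5:**
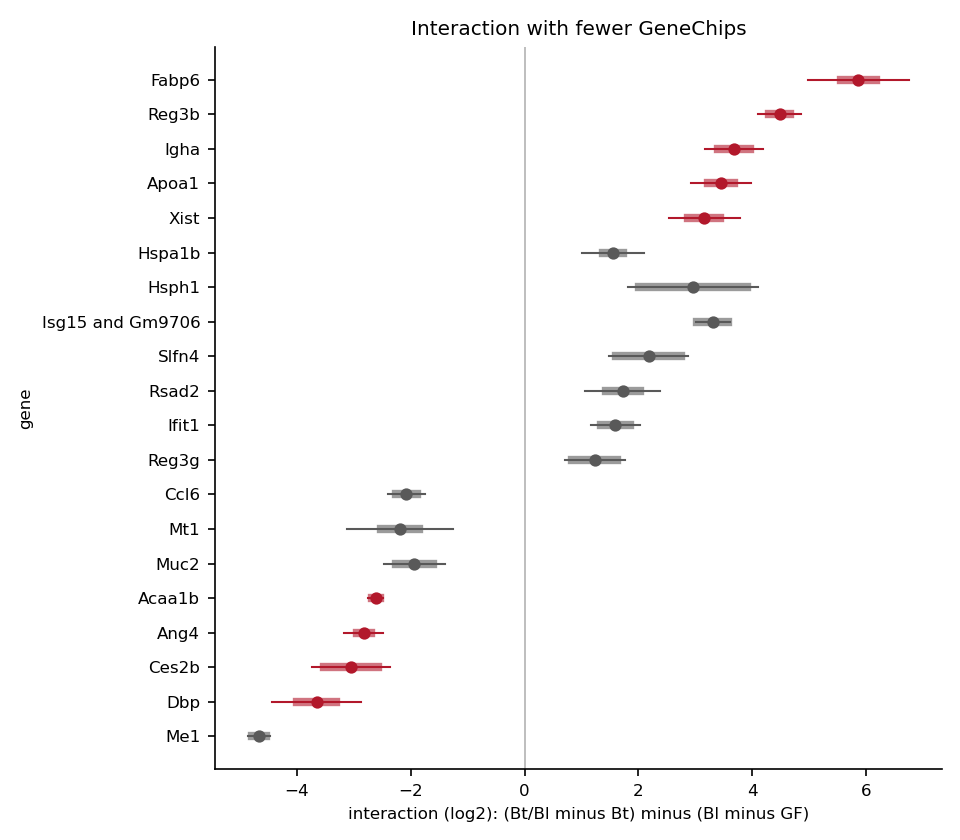
Interaction on the log2 scale (x axis) of 20 probe sets from the fit to all 8 GeneChips (points), with thick bars for the range when each GeneChip was left out in turn and thin lines for the range over the 16 choices of 1 GeneChip per state. Red marks probe sets at an adjusted p under 0.05 in the full fit and grey the others, and no range shown crosses 0. The 20 were picked from the named genes. Called genes were named only where the sign held in all 16 choices, so the red ranges could not cross 0. Ranges over the 16 choices did cross 0 for other named genes, such as Klk1 (-0.89 to 2.82) and Muc4 (-0.66 to 1.11).

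Sizes were steadier than calls. No single GeneChip turned the sign of any of the 15 called interactions, yet in 5 of the 8 fits that left out 1 GeneChip no probe set was called at all: without either GF, without either Bt/Bl, or without the second Bt GeneChip. The highest adjusted p of Reg3b over these fits was 0.159, and that of Ang4 and Acaa1b 0.558. Without the first Bt GeneChip 11 were higher and 115 lower, without the first Bl GeneChip 11 and 227, and without the second 190 and 839. The duplicates of Bl differed most, by a median of 0.52 on the log2 scale, followed by those of Bt at 0.41, GF at 0.32 and Bt/Bl at 0.28.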

How the data were processed

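Laser-captured cecal epithelium was measured on 8 Mouse 430 2.0 GeneChips, 2 amplifications of 1 RNA pool of 4 mice for each state, and on 8 GlycoGeneChips. The deposited values are MAS5 signals on a linear scale, which the authors had scaled on each GeneChip to a common trimmed mean. The tables used here hold no detection calls, so low signals were handled with a filter and a floor at the median of all values, 583.1 (860.3 on the GlycoGeneChip). Control probe sets were left out.

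The interaction was fitted on log2 signals with limma 3.58.1 in R 4.3.3 (group means of the 4 states, 4 residual degrees of freedom, moderated with an intensity trend), and p-values were adjusted by Benjamini-Hochberg over all probe sets kept. The number of GeneChips limits the precision. The fit was tested on simulated data. Of 45037 probe sets, 34945 had 1 gene symbol, 932 several and 9160 none, and lists used the brightest probe set that is named for a gene alone.

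Named genes were, for each form and direction, up to 5 with the largest called interaction of the same sign in all 16 choices of 1 GeneChip per state, then further genes by lowest unadjusted p, genes discussed by the study, and up to 4 members of each list described. Genes, forms and lists were chosen with earlier results of these data known. The promoters shown were chosen after values had been seen. Alternatives were the floor, the filter, the scaling, the spread model, the fold that counts as a move, the linear scale and each GeneChip left out. The fit without the GF GeneChips was added after the data had been seen.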

Additional observations from a re-analysis of the deposited data

Results flagged for a closer look

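The interaction is itself a test of whether the change that comes with Bl differs between pools with and without Bt, against the spread of amplifications. On the Mouse 430 2.0, 15 probe sets passed it after adjustment. Those above additivity were Reg3b (4.48 and 2.98 on the log2 scale), Fabp6 (5.87), Igha (3.68 and 3.39), Apoa1 (3.45 and 3.33), Xist (3.16) and the probe sets annotated to several immunoglobulin kappa genes (2.30, 2.49 and 3.08). Those below were Dbp (-3.66), Ces2b (-3.04), Ang4 (-2.83) and Acaa1b (-2.61). On the GlycoGeneChip Reg3b passed as well (3.85).

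Without the GF GeneChips the difference between Bt/Bl and the mean of Bt and Bl, which is another contrast than the interaction, was 2.66 and 2.25 for Reg3b, 0.04 for Fabp6, 1.17 and 1.08 for Igha, -0.29 and -0.97 for Apoa1, 1.03 for Xist, 0.48, 0.62 and 0.96 for the kappa probe sets, -1.15 for Dbp, -1.95 for Ces2b, -0.83 for Ang4 and -1.01 for Acaa1b. Of these the brighter Reg3b probe set (2.66) passed after adjustment, and the sign for Apoa1 was opposite to that of its interaction.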

How the results depend on the processing

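Calls depended on the settings more than sizes did. Against 11 higher and 4 lower, there were 20 and 8 with the floor at the 25th percentile, 15 and 10 with no floor, 9 and 4 after quantile normalization, 4 and 0 with median scaling, 14 and 6 with the filter at the 75th percentile, 2 and 1 with no intensity trend, and 17 and 10 with a robust spread. With no filter limma gave 0 and 0, beside 2820 at an unadjusted p under 0.05. An interval of 90% beyond 1 in size held for 73 and 92. The fit without the GF GeneChips, chosen after seeing the data, tests another contrast, Bt/Bl against the mean of Bt and Bl, which is not 0 under additivity. Its counts, 2 higher and 0 lower, are therefore not comparable with those of the interaction. Of the 15 called probe sets, 15 kept their call with either other floor, 15 with the stricter filter, 15 with the robust spread, 13 after quantile normalization, 4 with median scaling, 2 without the trend and 0 without the filter. With 1 GeneChip left out, between 0 and 190 were higher and between 0 and 839 lower. The share of positive interactions was 43.8%, and 62.2% with median scaling.

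Sizes of the forms, in the order synergy, dominance of Bt, dominance of Bl, cancellation and shared response, were 587, 1876, 1541, 1484 and 1165 with the floor at the 25th percentile and 903, 1731, 1517, 1604 and 1742 with no floor. They were 457, 2507, 1613, 1313 and 797 with 1.5-fold as a move, and 3, 5, 7, 1 and 7 with 4-fold. Median scaling gave 75 in synergy and 337 in cancellation, and the filter at the 75th percentile 329 and 213 in dominance of Bt and of Bl. With 1 GeneChip left out the ranges were 54 to 181, 537 to 2869, 304 to 1557, 187 to 425 and 122 to 393. On the GlycoGeneChip 3 were higher with no floor, 0 with no filter and 0 with no trend, and leaving out 1 GeneChip gave between 0 and 1 higher and between 0 and 1 lower.

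Signs turned for Pnliprp2 (0.28 with the floor at the 25th percentile, 0.64 with no floor), for Reg3g on the linear scale (-0.53), and with single GeneChips left out, where the values ran between -0.56 and 1.03 for Mzb1, -0.0077 and 0.81 for Slfn9, -0.094 and 0.54 for Muc4, -0.068 and 0.61 for Slfn5, and -0.20 and 1.44 for Slc30a10. The causes were not tested. No paired analysis was possible because the labels number the GeneChips and give no replicate number that the states share.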
